A study of Mus musculus with 3 samples.

Results

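Angpt1 encodes angiopoietin-1, a secreted growth factor. It was followed as 1 of the 14721 genes counted in 21251 sorted mouse bone marrow cells. The gene was chosen by its measured level and ratios between these 3 libraries. Those values are therefore given as a description, with no test.

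Angiopoietin-1 is the activating ligand of TIE2, the receptor tyrosine kinase encoded by Tek. In vessels it is made by cells around the endothelium and keeps the endothelial layer quiet and tight, signalling through PI3-kinase and AKT to hold FOXO transcription factors out of the nucleus. Angiopoietin-2, encoded by Angpt2, binds the same receptor and often opposes it, and TIE1 is a related receptor that modulates TIE2. In bone marrow the ligand is made by stromal cells, megakaryocytes and the stem and progenitor cells themselves, and it has been linked both to the quiescence of TIE2-bearing stem cells and to the state of the marrow vessels.

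The cells were sorted from bone marrow as LSK cells, which lack lineage markers, carry Sca-1 and Kit, and include blood stem cells and multipotent progenitors. There were 3 single-cell libraries, 1 per genotype. The DKO library came from Spop(D/D) Myd88(-/-) mice, which carry the deleted Spop allele and lack Myd88. The KO library came from Spop(D/D) Myd88(+/+) mice, with the deleted Spop allele and intact Myd88. The WT library came from Spop(+/+) Myd88(+/+) mice. SPOP is the substrate adaptor of a cullin ubiquitin ligase, and MyD88 relays signals of Toll-like receptors and of the receptor for interleukin-1. What drives the Spop deletion, the age of the mice and the number of animals per library are not given in the labels used here.

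The DKO library held 8184 cells, with a median of 12404.5 unique transcript tags (UMIs) per cell. The KO library held 4920 cells with a median of 17319 UMIs, and the WT library held 8147 cells with a median of 9245. Libraries shared between 46 and 83 cell barcodes, pair by pair. The sort markers were detected in each library, Kit in 52.3% to 57.5% of cells and Ly6a, which encodes Sca-1, in 47.2% to 58.7%. These shares were not taken at equal depth. By level, Kit stood at 65.9 counts per 1000000 UMIs (CPM) in DKO, 41.5 in KO and 94.8 in WT. Ly6a stood at 89.5 CPM in DKO, 85.1 in KO and 90.4 in WT. Spop itself stood at 77.1 CPM in DKO, 63.1 in KO and 70.7 in WT. The part of the gene that is deleted is not given in the labels, and a tag from the 3' end outside it checks nothing. Myd88 stood at 4.47 CPM in DKO, 25.8 in KO and 13.7 in WT. Xist stood at 1537 CPM in DKO and 0.187 in WT, with no UMI in KO, while the Y-linked Ddx3y had no UMI in DKO, 32.2 CPM in KO and 43.9 in WT. The sex of the mice and the DKO genotype cannot be told apart. No genotype had a replicate library. Every 95% interval below covers counting error only, and library, preparation and genotype cannot be told apart in any comparison between genotypes.

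In the GENCODE annotation on GRCm38 (mm10), Angpt1 lies on the minus strand of chromosome 15, from 42424723 to 42676977, with 2 annotated transcripts, of which the longer model, Angpt1-201, has 9 exons. The antisense gene Gm17473, at 42676241 to 42704616 on the plus strand, overlaps the 5' end of Angpt1. It was counted at 0.946 CPM in DKO, 0.306 in KO and 0.723 in WT, so few tags in all stood under that name. The libraries were made from the 3' ends of transcripts, where no annotated gene overlapped.

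Angpt1 was an abundant transcript of the DKO and WT libraries and a much scarcer one in KO. It was counted 13851 times in DKO, which is 126 CPM (95% interval 124 to 128). The KO library had 3333 counts, or 32.9 CPM (31.8 to 34.0), and the WT library 7950 counts, or 92.8 CPM (90.7 to 94.8). The order was DKO, WT, KO, and no interval touched another. The level in KO was 0.354 of that in WT (0.340 to 0.369), which is 2.82-fold lower. The level in DKO was 3.83-fold that in KO (3.69 to 3.98) and 1.36-fold that in WT (1.32 to 1.40).

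These ratios can be set beside those of all genes with a mean of at least 5 CPM over the pair, although the gene was chosen with them known and nothing is read from the ranks. Between KO and WT, 17.1% of 9046 genes were at least 1.5-fold lower in KO and 7.77% at least 1.5-fold higher, and 236 genes had a lower ratio than Angpt1. Between DKO and KO, 17.9% of 8973 genes were at least 1.5-fold higher in DKO and 6.32% lower, and 58 genes had a higher ratio than Angpt1. Between DKO and WT, 3.62% of 9205 genes were at least 1.5-fold higher in DKO and 3.55% lower. Angpt1 lay within 1.5-fold there, below 795 other genes. Scaling by TMM moved the median log2 ratio of genes at 20 CPM or more from 0.02 to 0.17 for KO over WT, and from 0.08 to -0.12 for DKO over KO. The Angpt1 ratios with TMM were 0.393 for KO over WT, 3.35 for DKO over KO and 1.32 for DKO over WT.

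The difference was also visible cell by cell. At the depth sequenced, 74.2% of DKO cells, 39.9% of KO cells and 52.6% of WT cells held an Angpt1 UMI, with a mean of 1.69 UMIs per cell in DKO, 0.677 in KO and 0.976 in WT. Depth per cell was highest in KO, so each cell was also thinned to 5500 UMIs, which left out 178 DKO, 0 KO and 683 WT cells that were shallower. At that equal depth the share with an Angpt1 UMI was 49.3% in DKO (48.2% to 50.4%), 19.2% in KO (18.1% to 20.3%) and 37.7% in WT (36.6% to 38.8%). Cells with 3 or more thinned UMIs made up 5.90% of DKO, 0.833% of KO and 3.62% of WT cells. Angpt1 was thus spread over many cells at a few UMIs each. The most in a thinned cell was 6 UMIs in DKO, 4 in KO and 7 in WT. At the depth sequenced the most was 11 in DKO, 7 in KO and 12 in WT. The variance of thinned counts was 1.22 times the mean in DKO, 1.29 times in KO and 1.32 times in WT, where equal levels in all cells would give 1. Free RNA in the droplets adds tags to cells that do not express a gene. In WT, B lineage-like cells, taken as a class that should lack Angpt1, held an Angpt1 UMI in 5.64% of thinned cells, at a median of 13065 UMIs per cell against 9245 in the library. In KO the lowest share was that of a cluster led by Ms4a3 and Elane, at 5.46% of cells with a median of 34172 UMIs.

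**Figure D1:**
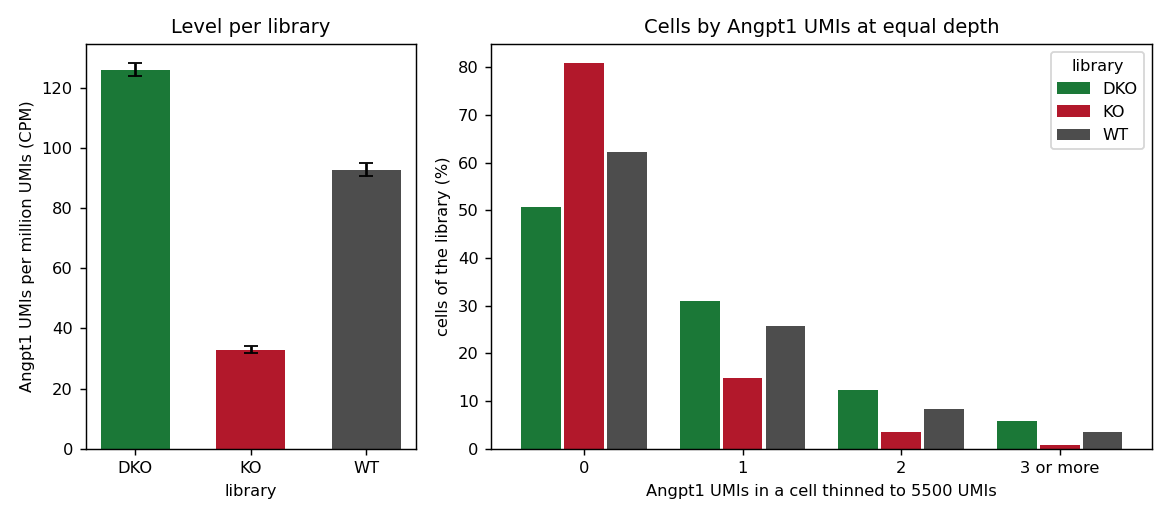
Left, Angpt1 level (CPM) in the DKO, KO and WT libraries, with 95% Poisson intervals; right, the percentage of each library's cells by Angpt1 UMIs after thinning each cell to 5500 UMIs. KO stands at 32.9 CPM, below 126 in DKO and 92.8 in WT, and 80.8% of thinned KO cells have no Angpt1 UMI, against 50.7% in DKO and 62.3% in WT.

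Cells of all libraries were clustered together with Angpt1 left out of the clustering genes. Of 19 clusters, 9 took a "-like" class name because at least 3 markers of a list were among their 15 leading genes, 3 more than of any other list. The others are given by number and leading genes. A cluster made up mostly of cells of 1 library may reflect the library rather than a type of cell. Cluster 0 was 92.4% DKO cells, cluster 1 was 97.9% KO, cluster 4 was 93.4% KO, the erythroid-like cluster 13 was 99.5% KO, cluster 3 was 94.8% WT, the stem cell-like cluster 9 was 96.6% WT and the B lineage-like cluster 14 was 97.7% WT. Levels within a group are given where a library had at least 50 cells in it.

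The highest level of any cluster, in DKO and in WT, was that of a stem cell-like cluster. Cluster 12, led by genes of long-term stem cells such as Procr, Mllt3, Clec1a and Mecom, had 209 CPM in DKO (193 to 225) and 178 in WT (167 to 190). In these cells 65.7% in DKO and 60.8% in WT held an Angpt1 UMI at equal depth. The KO library had 26 cells in cluster 12, too few for a level. Cluster 9, the other stem cell-like cluster, with Hlf, Procr and Gcnt2 among its leading genes, had 142 CPM in WT (135 to 149), below both megakaryocyte-like clusters of WT. As a class, stem cell-like cells had 206 CPM in DKO and 154 in WT. Stem cell-like cells were 4.73% of DKO, 0.610% of KO and 23.1% of WT cells. They held 5.05% of the Angpt1 UMIs of DKO, 1.05% of those of KO and 30.3% of those of WT.

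Megakaryocyte-like cells also stood high, and the class was well filled in every library, with 892 DKO, 436 KO and 399 WT cells. Cluster 10, led by Pf4, Gp1bb, Gp9 and Treml1, genes of megakaryocytes and platelets, had 171 CPM in DKO (162 to 181), 107 in KO (95.8 to 118) and 161 in WT (147 to 176). Cluster 16, with Pf4, Vwf and Itga2b among its leading genes, had 160 CPM in DKO (150 to 172), 101 in KO (90.5 to 113) and 157 in WT (138 to 179). In both clusters KO lay below the other libraries with no overlap of the intervals, while DKO and WT overlapped.

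Taken as a class, megakaryocyte-like cells had 167 CPM in DKO, 104 in KO and 160 in WT. The level in KO was 0.652 of that in WT (0.586 to 0.725), and the level in DKO was 1.60-fold that in KO (1.47 to 1.75). Between DKO and WT the ratio was 1.04 (0.959 to 1.14), an interval that includes 1. Among genes with a mean of at least 20 CPM in these cells, 2.62% of 5144 had a KO level lower than that in WT by 1.5-fold or more, and 115 of them had a lower ratio than Angpt1. In the same cells 5.86% of 5223 genes were at least 1.5-fold higher in DKO than in KO, and 175 had a higher ratio than Angpt1. Megakaryocyte-like cells made up 10.9% of DKO, 8.86% of KO and 4.90% of WT cells, and they held 15.2% of the Angpt1 UMIs of DKO, 20.3% of those of KO and 8.92% of those of WT.

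Cells along the lymphoid path had intermediate to low levels. Cluster 8, with Flt3, Satb1 and Cd52 among its leading genes, had 110 CPM in DKO (102 to 118) and 97.5 in WT (90.3 to 105). Cluster 7, led by Dntt with Il7r and Notch1, which marks cells further towards lymphoid fate, had 50.2 CPM in DKO (43.5 to 57.7), 21.3 in KO (12.2 to 34.6) and 41.6 in WT (37.4 to 46.2). The KO value rests on 16 UMIs in 63 cells. Both clusters together, as the lymphoid-primed-like class, had 89.2 CPM in DKO, 20.5 in KO and 67.2 in WT, where 63 of the 66 KO cells lay in cluster 7. Within cluster 7 the KO level was 0.512 of that in WT (0.290 to 0.844). B lineage-like cells of cluster 14, with Ebf1, Cd79a and Pax5, had 9.19 CPM in WT (7.31 to 11.4).

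Clusters with myeloid, erythroid or basophil genes also stood low, except cluster 17 in KO, which lay above the 32.9 CPM of that library. Cluster 5, with the monocyte and dendritic factor Irf8, had 66.5 CPM in DKO (62.1 to 71.1) and 49.8 in WT (45.6 to 54.3). Cluster 17, which mixes the mast cell and basophil gene Prss34 with the erythroid genes Car1 and Klf1, had 67.7 CPM in DKO (59.4 to 76.9) and 70.7 in KO (62.0 to 80.3). This was the cluster in which DKO and KO did not differ beyond counting error, with a ratio of 0.958 (0.797 to 1.15). Cluster 4, led by Ms4a3 and Elane of granulocyte-monocyte progenitors, had 19.0 CPM in DKO (12.5 to 27.7) and 10.1 in KO (9.20 to 11.1). Erythroid-like cells of cluster 13 had 18.6 CPM in KO (16.5 to 20.9). Mature neutrophil-like cells of cluster 18 were too few per library, and their 72 cells together had 4 Angpt1 UMIs, or 1.66 CPM (0.453 to 4.26). None of the 72 held an Angpt1 UMI at 5500 UMIs, which allows a share of cells with an Angpt1 UMI of up to 4.17%.

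The remaining clusters had no class name and mostly stood between stem cell-like and lymphoid-primed-like cells. Cluster 0, led by Stxbp4 and Txnip, had 168 CPM in DKO (162 to 175) and 120 in WT (100.4 to 142). Cluster 11, with the DNA synthesis genes Tyms and Tk1, had 149 CPM in DKO (142 to 156) and 126 in WT (115 to 137). The mitotic cluster 2, led by Cenpf and Ccnb2, had 112 CPM in DKO (107 to 117) and 114 in WT (106 to 122), with overlapping intervals. Clusters 3, 6 and 15 were led by immediate early genes such as Fos, Egr1 and Nr4a1. They ranged from 120 to 137 CPM in DKO and from 94.3 to 99.4 in WT. In KO the largest cluster was cluster 1, led by Vldlr, Ifitm1, Socs3 and Ly6a. It held 33.8% of KO cells and 44.9% of the Angpt1 UMIs of KO at 54.7 CPM (51.9 to 57.5).

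Within DKO the interval of cluster 12 lay above those of all other clusters, while clusters 10, 0 and 16 overlapped one another. Within WT the interval of cluster 12 overlapped those of clusters 10 and 16, and cluster 9 overlapped clusters 10, 16, 0 and 11. Within KO clusters 10 and 16 overlapped, above cluster 17, then cluster 1, then clusters 7 and 13, which overlapped, with cluster 4 lowest.

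**Figure D2:**
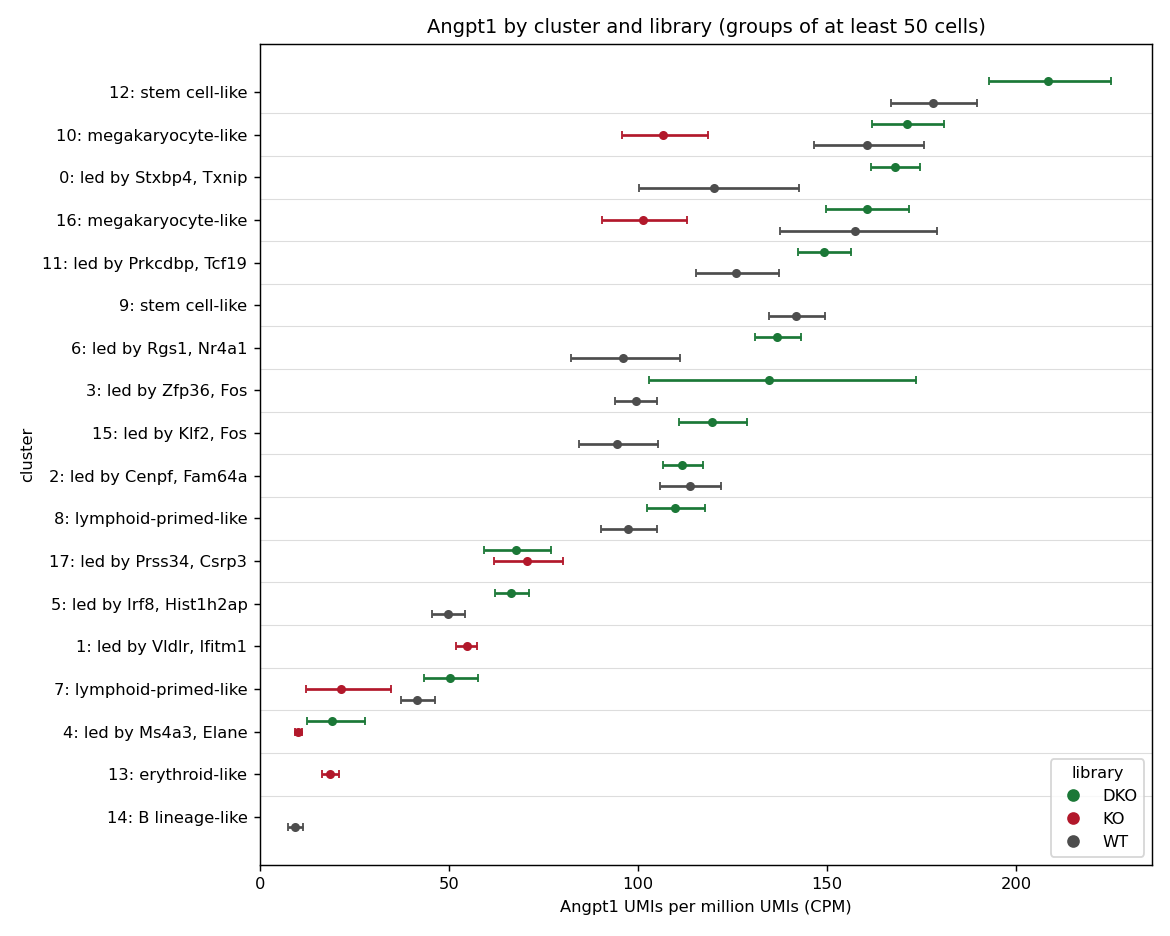
Angpt1 level (CPM, points, with 95% Poisson intervals) in each cluster with at least 50 cells in a library, ordered from the highest level. Stem cell-like cluster 12 (209 CPM in DKO, 178 in WT) and megakaryocyte-like clusters 10 and 16 are among the highest, and KO stands at 107 and 101 CPM in clusters 10 and 16, and B lineage-like cells (9.19 CPM in WT) are at the bottom.

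The libraries differed in cell mix, so levels were also compared with the mix held fixed. Cluster 4 held 27.2% of KO cells and 43.6% of all KO UMIs. The erythroid-like cluster held 20.1% of KO cells and 15.1% of the UMIs, and both stood below 20 CPM there. Only clusters 7, 10 and 16 had at least 50 cells in both KO and WT, and they held 10.1% of KO and 16.3% of WT cells. The KO level was below that of WT in all 3, with ratios of 0.512 to 0.664. Weighted by the WT cell shares of these clusters, the KO to WT ratio was 0.604.

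A second grouping reached more of the KO cells. WT cells were clustered alone into 15 clusters, and each KO and DKO cell was given the WT cluster of its nearest WT neighbours, whether or not it had a close counterpart there. Use of this grouping for ratios was chosen after seeing the data. In 9 clusters with at least 50 cells in both libraries, holding 77.1% of KO and 66.9% of WT cells, the KO level was 0.386 to 0.663 of the WT level, and the interval lay below 1 in all 9. It lay below 1 in all 9 under each of 3 other scalings as well, where the highest ratio was 0.745. Between DKO and KO, 10 clusters could be compared, and the DKO level was 1.59-fold to 2.97-fold that in KO with every interval above 1, also under the other scalings. Between DKO and WT, 13 clusters gave ratios of 0.938 to 1.69, of which 8 had an interval above 1 and 5 included 1. With the total without the most abundant genes, 7 of the 13 lay above 1.

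In that grouping, the WT cluster with the highest Angpt1, which had no class name and was led by Meg3, Sult1a1 and Procr, had 203 CPM in DKO cells (193 to 212), 104 in KO cells (91.5 to 118) and 174 in WT cells (165 to 184). The megakaryocyte-like cluster had 165 CPM in DKO (159 to 171), 104 in KO (96.9 to 111) and 156 in WT (147 to 166). Weighted by the WT shares over all clusters compared, the ratios were 0.575 for KO over WT, 1.99 for DKO over KO and 1.17 for DKO over WT. These lie closer to 1 than the 0.354, 3.83 and 1.36 of whole libraries.

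Stem cell marker transcripts gave a view that did not rest on clusters. Each thinned cell was placed by its summed UMIs of 15 stem cell markers, or of 13 when Ifitm1 and Ly6a were left out, a choice made after seeing that these genes lead the KO cluster 1. With 13 markers, Angpt1 in DKO was 70.5 CPM in cells with 0 marker UMIs, 101 with 1, 122 with 2, 144 with 3 to 4 and 173 with 5 or more. In KO the levels over the same bins were 16.6, 33.4, 61.0, 73.7 and 97.4 CPM. In WT they were 36.4, 69.9, 95.2, 117 and 143 CPM. With this marker set Angpt1 was higher at each step up in marker UMIs in every library, and at every step KO stood lowest and DKO highest.

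How the distance between libraries changed along this range depended on the marker set. With 13 markers the KO to WT ratio was 0.455 (0.412 to 0.504) in cells with 0 marker UMIs and 0.683 (0.610 to 0.763) in cells with 5 or more. The DKO to KO ratio was 4.25 (3.90 to 4.63) in cells with 0 and 1.78 (1.60 to 1.99) in cells with 5 or more. The DKO to WT ratio was 1.94 (1.76 to 2.13) with 0 and 1.21 (1.16 to 1.28) with 5 or more. With all 15 markers the KO to WT ratio ran the other way, at 0.692 (0.523 to 0.914) in cells with 0 and 0.310 (0.296 to 0.324) in cells with 5 or more. The DKO to KO ratio was then 3.30 (2.59 to 4.22) with 0 and 3.98 (3.81 to 4.16) with 5 or more. The KO levels were 16.3 CPM at 0 and 35.9 at 5 or more, and 3380 of the 4920 KO cells fell in the top bin.

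**Figure D3:**
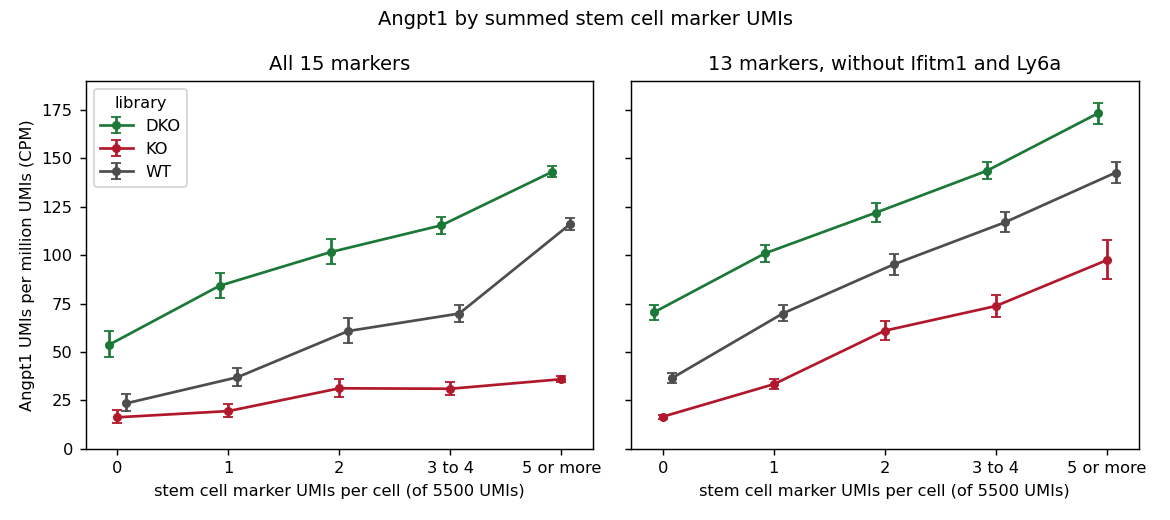
Angpt1 level (CPM, points, with 95% Poisson intervals) by the summed UMIs of stem cell markers in a cell thinned to 5500 UMIs, for all 15 markers (left) and for 13 without Ifitm1 and Ly6a (right). On the right the levels climb to 173 CPM in DKO, 97.4 in KO and 143 in WT in cells with 5 or more marker UMIs; on the left KO reaches 35.9.

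Angpt1 had no shared direction between cycling and other cells across libraries. Cycling cells were those in which more than 1% of the thinned UMIs came from a list of S phase genes or from a list of G2 and M genes. Nearly all calls came through the G2 and M list, with 1500 of 1520 cycling cells in DKO, 806 of 806 in KO and 960 of 969 in WT. The ratio therefore sets cells in G2 or M against all others, and cells in S phase can stand among the non-cycling ones. In cluster 11, led by Prkcdbp and Tcf19 and with the DNA synthesis genes Tyms and Tk1, 658 DKO cells were called non-cycling and 117 cycling. In DKO, cycling cells had 115 CPM and the 6486 non-cycling cells 129, a ratio of 0.890 (0.854 to 0.927). In KO, cycling cells had 40.0 CPM and the 4114 non-cycling cells 31.5, a ratio of 1.27 (1.17 to 1.38). In WT, cycling cells had 86.2 CPM and the 6495 non-cycling cells 92.9, a ratio of 0.928 (0.872 to 0.986). Whether the libraries differ in this ratio was not tested, and the direction in DKO and KO turned with the threshold. In DKO the ratio was 1.36 at a threshold of 2%, and in KO it was 0.613 at 0.5%. Counted per cell, cycling cells held more Angpt1 UMIs in every library, with a mean of 1.97 against 1.65 in DKO, 0.834 against 0.647 in KO and 1.28 against 0.972 in WT, beside a higher total of UMIs (median 17076.5 against 11547 in DKO, 19283 against 16774.5 in KO, 14995 against 9259 in WT).

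Within a cell class the cycling ratios were nearer to 1 or differed by cluster. In megakaryocyte-like cells they were 0.965 (0.880 to 1.06) in DKO, 0.997 (0.840 to 1.18) in KO and 1.06 (0.891 to 1.25) in WT, all including 1. In the Irf8-led cluster 5, cycling cells were lower, at 0.619 in DKO (0.508 to 0.749) and 0.680 in WT (0.537 to 0.852). In cluster 11 the ratio was 0.774 in DKO (0.672 to 0.889). In the mitotic cluster 2, cycling cells were higher, at 1.19 in DKO (1.04 to 1.36) and 1.93 in WT (1.54 to 2.44). Cluster 15, led by Klf2 and Fos, had a ratio of 1.26 in DKO (1.08 to 1.47) and 1.23 in WT (0.982 to 1.55). In the KO library, none of the 4 clusters compared had an interval clear of 1, with ratios of 0.890 to 1.10. The genotype differences stood in both states. In cycling cells the level in KO was 0.464 of WT (0.422 to 0.510) and that in DKO was 2.87-fold KO (2.64 to 3.12). In non-cycling cells these ratios were 0.339 (0.324 to 0.355) and 4.10 (3.93 to 4.28).

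**Figure D4:**
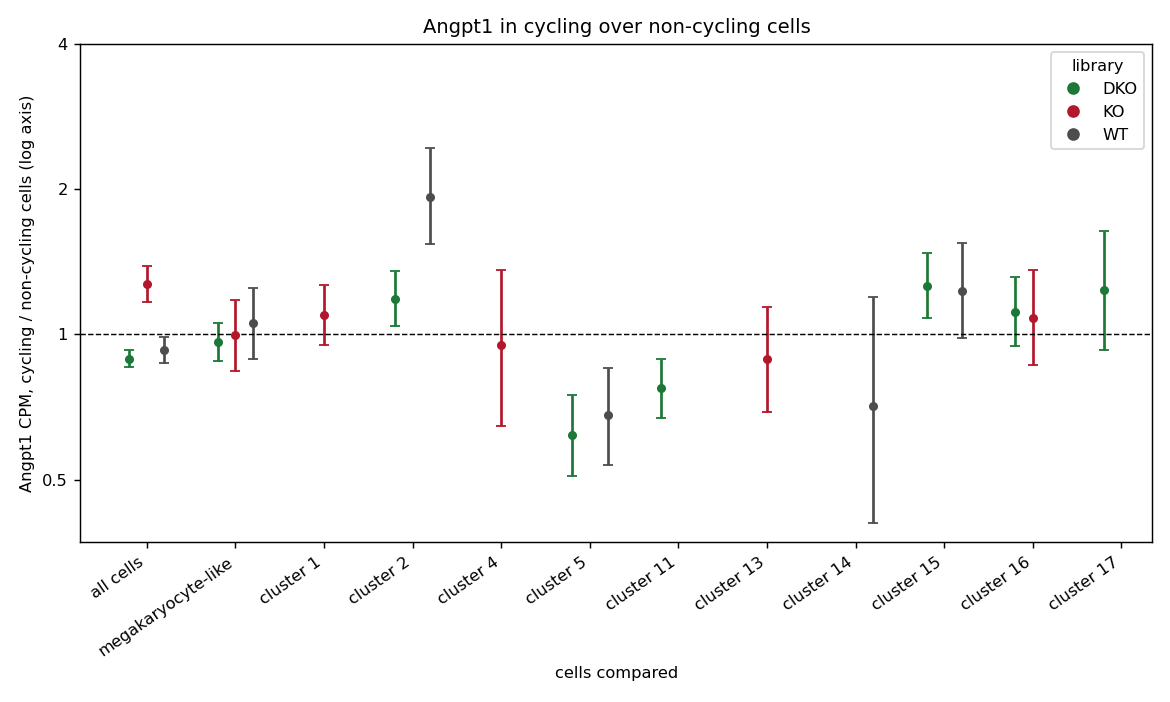
Ratio of Angpt1 CPM in cycling over non-cycling cells (log axis, points, with 95% intervals) in all cells, in the megakaryocyte-like class and in each cluster with at least 50 cells in both states, by library; the dashed line is a ratio of 1. All cells give 0.890 in DKO, 1.27 in KO and 0.928 in WT, and the intervals of megakaryocyte-like cells include 1 in all 3 libraries.

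The partners of angiopoietin-1 were examined through 34 other genes of the pathway, of which 28 were in the count table. The receptor gene Tek was scarce, at 2.42 CPM in DKO, 1.87 in KO and 2.26 in WT. Its highest cluster level in DKO and in WT was that of megakaryocyte-like cluster 16, and in KO that of cluster 10. Cluster 16 had 9.85 CPM in DKO (7.36 to 12.9), 7.79 in KO (5.04 to 11.5) and 14.4 in WT (8.93 to 22.1). Cluster 10 had 5.99 CPM of Tek in DKO (4.35 to 8.04), 9.15 in KO (6.17 to 13.1) and 9.04 in WT (5.96 to 13.2). Stem cell-like cluster 12 had 6.77 CPM of Tek in DKO and 6.13 in WT. The erythroid-like cluster of KO had 4.91 CPM of Tek (3.86 to 6.16) beside its 18.6 CPM of Angpt1. Angpt2, the other angiopoietin in the table, stood at 0.992 CPM in DKO, 0.759 in KO and 1.26 in WT.

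Tie1, the modulating receptor, was counted at 12.2 CPM in DKO, 3.59 in KO and 12.0 in WT. Its ratios were 0.299 for KO over WT (0.265 to 0.338), 3.40 for DKO over KO (3.02 to 3.83) and 1.02 for DKO over WT (0.937 to 1.10). Tie1 too was highest in stem cell-like cluster 12, at 33.2 CPM in DKO (27.1 to 40.3) and 41.4 in WT (36.2 to 47.2). In megakaryocyte-like cluster 10 it had 20.7 CPM in DKO, 13.7 in KO and 21.8 in WT. At equal depth, Tie1 was detected in 7.63% of Angpt1-positive against 5.86% of Angpt1-negative cells in DKO, in 3.39% against 2.04% in KO, and in 9.09% against 5.10% in WT. Tek was detected in 1.60% of Angpt1-positive against 1.11% of Angpt1-negative cells in DKO, in 2.97% against 1.38% in KO and in 2.13% against 0.817% in WT. The shares were higher in Angpt1-positive cells in each library, although the intervals overlapped for Tie1 in KO and for Tek in DKO. The part of cell type in this was not tested.

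Of the pathway genes, 21 had a mean of at least 5 CPM in each pair. Between KO and WT, 7 of the 21 were at least 1.5-fold lower in KO, 0 were higher and 14 lay within, beside the 17.1% and 7.77% of all genes. The median log2 ratio of the 21 was -0.14, against -0.08 for all genes at that level. The 7 were Tie1, the adaptor Dok2, the adaptor Nck1, the PI3-kinase subunits Pik3r1 and Pik3ca, and the transcription factors Foxo1 and Foxo3. With TMM scaling 4 of the 21 were lower. Between DKO and KO, 5 of the 21 were at least 1.5-fold higher in DKO, 1 was lower and 15 lay within, beside 17.9% and 6.32% of all genes, and the median was 0.30 against 0.13. Between DKO and WT, 2 were higher, 2 were lower and 17 lay within, beside 3.62% and 3.55% of all genes. The median was 0.04 against 0.06.

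Dok2, which binds the activated receptor, had 48.8 CPM in DKO, 19.9 in KO and 36.4 in WT. Pik3r1, the regulatory subunit of PI3-kinase, had 117 CPM in DKO, 62.5 in KO and 103 in WT. Over whole libraries both followed the order of Angpt1, with KO lowest and DKO highest, and the FOXO genes did not. By cluster the order varied. In megakaryocyte-like cluster 16, Dok2 had 62.0 CPM in KO (53.7 to 71.2) and 32.3 in WT (23.7 to 42.9). Dok2 had 46.0 CPM in KO and 39.2 in WT in cluster 10, and 45.3 and 59.3 in cluster 7. Pik3r1 had 76.0 CPM in KO and 70.1 in WT in cluster 16. It had 71.3 and 77.7 in cluster 10, and 108 and 130 in cluster 7. Foxo1 had 6.17 CPM in DKO, 4.17 in KO and 14.4 in WT, and its DKO level was 0.428 of WT (0.389 to 0.471). Foxo3 had 31.4 CPM in DKO, 19.4 in KO and 40.8 in WT. Pik3cd, the leukocyte PI3-kinase catalytic subunit, had 17.0 CPM in DKO, 27.9 in KO and 30.1 in WT. It was the pathway gene that was lower in DKO than in KO, at 0.610 (0.575 to 0.647). The integrin gene Itgb3 had 18.8 CPM in DKO, 10.7 in KO and 9.58 in WT, and Angptl4, of the angiopoietin-like family, had 20.2 CPM in DKO, 15.8 in KO and 11.8 in WT. These 2 were the pathway genes at least 1.5-fold higher in DKO than in WT. The adaptors Grb2 and Shc1, the integrin gene Itgb1 and the kinase gene Akt2 lay within 1.5-fold in all pairs.

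Other angiogenic factors were mostly scarce. Of 10 secreted factors, 9 were in the table and 3 were measured between KO and WT, of which 1, Egfl7, was lower in KO, beside 17.1% of all genes. Egfl7, a factor made by endothelium and stem cells, had 172 CPM in DKO, 102 in KO and 239 in WT. Hgf, hepatocyte growth factor, had 8.69 CPM in DKO, 2.83 in KO and 6.31 in WT. Tgfb1 had 257 CPM in DKO, 193 in KO and 209 in WT. Between DKO and KO, Egfl7 and Hgf were higher in DKO among 4 measured factors, beside 17.9% of all genes. Between DKO and WT 0 of 4 passed 1.5-fold in either direction, beside 3.62% of all genes higher and 3.55% lower.

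Of 11 genes that stem cells share with endothelium, 10 were in the table. All 6 measured genes of that list, Esam, Eng, Procr, Emcn, Cd34 and Mmrn1, were lower in KO than in WT by 1.5-fold or more, with a median log2 ratio of -1.46, and all 6 were higher in DKO than in KO, with a median of 1.24, beside the 17.1% of all genes that were lower in KO than WT and the 17.9% higher in DKO than KO. Members below the 5 CPM minimum did not all share this direction. Nrp1 had 2.52 CPM in DKO, 4.50 in KO and 2.38 in WT, a KO to WT ratio of 1.89 (1.60 to 2.24), and Flt1 had 0.373 CPM in DKO, 0.986 in KO and 0.245 in WT. Between DKO and WT the median was -0.002 and 1 of the 6, Mmrn1, was lower in DKO, beside 3.55% of all genes. Procr, the stem cell surface receptor EPCR, had 19.7 CPM in DKO, 6.14 in KO and 24.5 in WT. Cd34 had 359 CPM in DKO, 158 in KO and 334 in WT. The share of stem cell-like cells also differed between the libraries, at 4.73% in DKO, 0.610% in KO and 23.1% in WT. The part of that share in these ratios was not tested. In clusters 10 and 16, KO and WT lay closer for Esam and Eng than over whole libraries. Procr, Emcn, Cd34 and Mmrn1 were not compared within clusters. In cluster 10, Esam had 33.8 CPM in KO and 37.8 in WT, and Eng had 35.98 and 39.5. In cluster 16, Esam had 29.3 CPM in KO and 35.04 in WT, and Eng had 34.6 and 33.7. In cluster 7 both genes were lower in KO than in WT. The KO and WT intervals overlapped for both genes in each of these clusters.

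Markers of other possible sources of Angpt1 tags differed in level. Of 12 stromal genes, 6 were in the table, without Cxcl12, Kitl and Pdgfra, and they summed to 29.2 CPM in DKO, 21.0 in KO and 22.3 in WT. Most of that was Pdgfrb, at 27.0 CPM in DKO, 14.3 in KO and 20.1 in WT. Lepr, a marker of the stromal cells that make Angpt1 in marrow, stood at 0.737 CPM in DKO, 3.97 in KO and 1.14 in WT, and 0 DKO, 2 KO and 0 WT cells held 3 or more stromal genes. Of 9 endothelial genes, 8 were in the table, and Kdr and Flt1 were below 1 CPM in every library. They summed to 69.0 CPM in DKO, 37.6 in KO and 69.0 in WT, mostly from Pecam1, Tie1 and Emcn, which stem cells also express, and 133 DKO, 54 KO and 79 WT cells held 3 or more of them. Of 6 platelet genes, 5 were in the table and summed to 344 CPM in DKO, 261 in KO and 221 in WT, and 1389 DKO, 367 KO and 516 WT cells held 3 or more of them. Most of these sums came from Pf4, Nrgn and Gng11. Pf4 had 157 CPM in DKO, 180 in KO and 48.5 in WT, and Nrgn had 123 CPM in DKO, 59.8 in KO and 122 in WT. Ppbp, a gene of mature platelets, stood at 1.18 CPM in DKO, 0.710 in KO and 0.677 in WT. The part of any of these sources in the Angpt1 levels was not tested.

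Genes with a pattern like that of Angpt1 were sought over 35 groups of cells, 14 from DKO, 7 from KO and 14 from WT, each a cluster within a library. The measure was Pearson's r of log2(CPM + 5), given as a description, since the groups share libraries and depth. Over 4876 genes with a mean of at least 20 CPM, the median r was 0.09, and 5% of genes were above 0.70. Myct1, a Myc target gene expressed in stem cells and endothelium, was the most alike at r = 0.96. It had 105 CPM in DKO, 28.7 in KO and 75.8 in WT, and its KO to WT ratio of 0.378 and DKO to KO ratio of 3.66 lay near those of Angpt1.

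After Myct1 came Ndrg1 (0.94), the lipid-binding adaptor gene Dapp1 (0.93), Adgrg1 (0.93), which encodes the adhesion receptor GPR56, Bin2 (0.92), Ctla2a (0.92), the stem cell transcription factor Meis1 (0.91), Ctla2b (0.91), the keratin gene Krt18 (0.90) and Arhgef2 (0.90). Ctla2a and Ctla2b are close copies of each other, so their counts are uncertain. All 10 were lower in KO than in WT, with ratios of 0.359 to 0.679, and higher in DKO than in KO, with ratios of 1.47 to 3.66. They were picked by r over groups from every library, so differences between libraries entered the choice, and nothing is read from this shared direction. All but Arhgef2, at 0.679 and 1.47, passed 1.5-fold in both of these comparisons. Among genes averaging 20 CPM or more over a pair, 12.3% of 5141 were 1.5-fold or more lower in KO than in WT. For DKO and KO, 13.4% of 5163 such genes were 1.5-fold or more higher in DKO. Within the groups of DKO alone r of these 10 lay between 0.81 and 0.96, within those of KO alone between 0.84 and 0.99 and within those of WT alone between 0.91 and 0.97. Of the stem cell markers in this comparison, Mecom reached 0.86 and Hlf 0.79, while Ifitm1 and Ly6a had 0.08 and 0.09. The megakaryocyte marker Pf4 had 0.44.

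The genes least like Angpt1 were Pgls of the pentose phosphate pathway (-0.83), the respiratory chain gene Cox4i1 (-0.79), the transferrin receptor gene Tfrc (-0.77), Serp1 (-0.76) and Cdc34 (-0.76). Tfrc had 10.8 CPM in DKO, 76.7 in KO and 14.3 in WT, and among the groups it was highest in cluster 4 of KO, at 119 CPM.

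**Figure D5:**
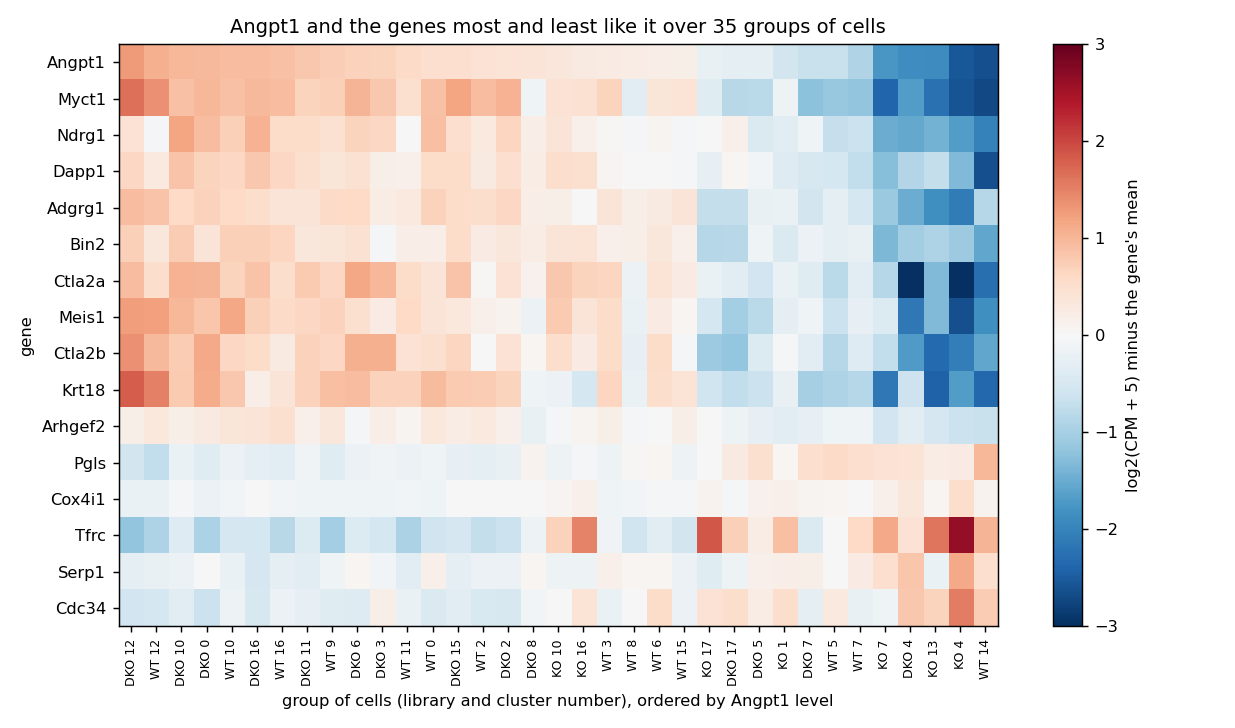
Levels of Angpt1, the 10 genes most like it and the 5 least like it (rows) in 35 groups of cells (columns, library and cluster number, from the highest Angpt1 level to the lowest), as log2(CPM + 5) minus each gene's mean. Myct1 (r = 0.96) follows the gradient of Angpt1 most closely, and Pgls (r = -0.83) and Tfrc (r = -0.77) run against it.

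The same was examined cell by cell within each library, between thinned cells with an Angpt1 UMI and those with none. Among the genes highest in Angpt1-positive cells by the lowest of the 3 libraries were Pdzk1ip1, Gng11, Mecom, Itga2b, Apoe, Hacd4, Nceh1 and Mycn. Pdzk1ip1, expressed in the most primitive stem cells, had 53.2 CPM in positive and 33.5 in negative cells of DKO, 37.2 and 19.0 in KO, and 74.1 and 35.8 in WT. Mecom had 45.1 CPM in positive and 30.5 in negative cells of DKO, 24.3 and 8.87 in KO, and 45.7 and 27.5 in WT. Log2 ratios of these 8 lay between 0.43 and 0.60 in DKO, 0.45 and 1.14 in KO, and 0.46 and 0.97 in WT. Of all 4876 genes, 5% lay above 0.18 in DKO, 0.41 in KO and 0.26 in WT. The genes lowest in Angpt1-positive cells were the myeloid genes Elane, Ly6c2, Clec12a, Irf8 and Slpi. Elane, the neutrophil elastase gene, had 22.2 CPM in positive and 199 in negative cells of DKO, 177 and 897 in KO, and 18.3 and 65.4 in WT.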

How the data were processed

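The authors deposited whole-number UMI counts for 14721 genes in 21251 kept cells of 3 Chromium 3' v2 libraries, per the labels, and a normalized table that was not used here. Per the submitters' processing notes, the mm10 build, Seurat, Cell Ranger and bcl2fastq were used; tool versions are not given in the sources used here. The DKO library held 109920419 UMIs, KO 101393024 and WT 85700749.

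Counts were summed over cells and divided by the total of the same cells (CPM). Levels carry exact Poisson, ratios exact conditional binomial and shares Clopper-Pearson intervals (95%), which cover counting error only. No test was made, since each genotype has 1 library and Angpt1 was chosen with its values known. Members, gene lists, tests and alternatives were chosen with earlier results of these data known, and the rule for class names was set with the clusters in view. Named genes were Angpt1, pathway and angiogenic list members, class and other-source markers, the 10 most and 5 least alike genes, and the 10 and 5 genes most different in Angpt1-positive cells, without sex-linked, globin, mitochondrial, ribosomal protein and predicted genes. Kit, Ly6a, Xist, Ddx3y and Gm17473 were added as checks. Some genes that the naming rule picks are not shown.

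Cells were clustered in scanpy 1.11.5 on 2000 variable genes without Angpt1, 30 principal components, 20 neighbours and Leiden resolution 1, with no batch correction. Scrublet's automatic calls (0.0611% of DKO, 0.0813% of KO and 0.0245% of WT cells) were too few to use, and every cell was kept, and an alternative removed the 536 DKO, 194 KO and 531 WT cells with the highest scores. TMM factors came from edgeR 4.0.16. Calculations were tested on simulated data. Alternatives were other scalings, equal weight per cell, thinning to 4500, 5500 or 7000 UMIs, quality, doublet and cluster filters, a fixed cell mix, other clusterings, cycling thresholds of 0.5% and 2%, and other settings for like genes and for the pathway counts.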

Additional observations from a re-analysis of the deposited data

Results flagged for a closer look

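The ratio of Angpt1 in cycling over non-cycling cells pointed in opposite directions between libraries, at 0.890 in DKO, 1.27 in KO and 0.928 in WT. The difference between libraries was not tested, and the direction in DKO and KO turned with the cycling threshold.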

How the results depend on the processing

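Across 37 results and 145 alternatives, 78 values stayed within counting error or 1.5 times the count, 65 moved and 2 reversed. The KO to WT ratio was 0.393 with TMM, 0.398 with median-of-ratios factors, 0.332 without the 100 most abundant genes in the total, 0.438 with equal weight per cell, 0.449 with cells thinned to 5500 UMIs, 0.619 without B-lineage, erythroid, neutrophil, monocyte-dendritic and basophil-mast clusters, and, at the WT cell mix, 0.604 or 0.575 with WT-made clusters. In the same order, without the total that left out abundant genes, the DKO to KO ratio was 3.35, 3.34, 3.10, 3.08, 2.03, 1.80 and 1.99. The DKO to WT ratio was 1.32 with TMM, 1.29 without the most abundant genes, 1.26 without those clusters, 1.20 at the WT mix and 1.17 with WT-made clusters. Direction held in all of these. The cycling ratio was 0.802 in DKO at a threshold of 0.5% and reversed to 1.36 at 2%; in KO it reversed to 0.613 at 0.5%, with too few cycling cells at 2%; in WT it was 0.712 at 0.5% and 0.808 at 2%. The cause was not tested. In megakaryocyte-like cells the ratios kept to 0.652 to 0.680 for KO over WT, 1.51 to 1.60 for DKO over KO and 1.02 to 1.05 for DKO over WT in 5 clusterings. WT-made clusters gave no stem cell-like class. Of the 10 most alike genes, 4 stayed with Spearman correlation, and 3 to 5 within a library alone. Of the 10 genes of Angpt1-positive cells, 6 stayed at 7000 UMIs and 4 unthinned. No paired analysis was possible because each genotype has 1 library. Shares of cells and levels of single UMIs are limited by depth, and no alternative can stand in for replicates.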
